A study of Mus musculus with 768 samples.

Results

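The genes described here encode the CD3 chains of the T cell receptor complex (Cd3d, Cd3e and Cd3g), the zeta chain (Cd247) and the proteins that first carry its signal (Zap70, Syk, Lck and Lat). They were chosen by name, as 8 of the 24490 gene entries deposited, and each symbol stood on 1 entry. NK cells had been sorted from tumors of MTAP1A, a fibrosarcoma cell line derived from mice lacking Tap1, in WT mice of strain C57BL/6 and in PD-1-/- mice of strain C57BL/6, PDCD-1(PD-1)-/-. Recipients were males matched for age, both groups carried the same tumor clone, and the gate for viable cells included NK1.1+, CD3- and GR1-. Each genotype was 1 pool of tumors from 3 mice on 1 plate, so genotype, plate and pool cannot be told apart. The animal of origin of a cell was not analysed here.

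CD3 epsilon pairs with CD3 delta and with CD3 gamma at the T cell surface, and these chains carry the immunoreceptor tyrosine-based activation motifs (ITAMs) that pass on the signal of the T cell receptor. The zeta chain also carries ITAMs, and NK cells use it, with the adaptor encoded by Fcer1g, below the receptor NKp46, and the adaptor encoded by Tyrobp below other activating receptors. Src family kinases such as Lck phosphorylate ITAMs, the kinases ZAP-70 and Syk dock on the phosphorylated motifs, and both then phosphorylate the membrane adaptor LAT.

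The measurement was the RPKM, a read number scaled to transcript length and library size, of each gene in each well. Wells with 1000 to 3500 genes above 0 were kept, counting genes found in at least 3 wells, which left 726 cells, 360 of them WT and the rest PD-1-/-. RPKM values of a gene are multiples of what 1 read is worth, which gave back the reads, and kept cells had a median of 310184 recovered reads in WT and 328754 in PD-1-/-, with a range from 1339 to 540078. A transcript was taken as found at any RPKM above 0. Cells of 1 pool are not replicates of a genotype, so no test between genotypes or groups of cells was made. Exact binomial (Clopper-Pearson) 95% intervals are given for shares, and a Newcombe interval built from them for each difference. These intervals cover counting error only, and reads without molecular identifiers are not independent molecules.

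The Cd3d, Cd3e and Cd3g genes are neighbors, and the transcripts of these genes were found together in cells. For that reason the 250 bases before each start are shown, from RefSeq on GRCm38.p6, 5′ to 3′ on the strand of the gene, with the ETS core GGAA and its reverse TTCC in capitals. The Cd3d window is chr9:44981536-44981785 on the plus strand, the Cd3e window is chr9:45009612-45009861 on the minus strand, and the Cd3g window is chr9:44980432-44980681 on the minus strand.
Cd3d: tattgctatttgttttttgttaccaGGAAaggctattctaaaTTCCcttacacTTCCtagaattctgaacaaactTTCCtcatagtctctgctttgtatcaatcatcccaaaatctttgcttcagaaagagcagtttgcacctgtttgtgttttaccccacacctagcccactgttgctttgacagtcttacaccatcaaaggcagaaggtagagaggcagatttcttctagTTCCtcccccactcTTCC
Cd3e: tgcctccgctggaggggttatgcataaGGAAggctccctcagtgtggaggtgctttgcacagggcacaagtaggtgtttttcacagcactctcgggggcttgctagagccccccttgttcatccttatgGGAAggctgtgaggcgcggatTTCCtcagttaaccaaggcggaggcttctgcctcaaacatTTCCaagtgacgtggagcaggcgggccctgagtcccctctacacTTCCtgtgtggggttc
Cd3g: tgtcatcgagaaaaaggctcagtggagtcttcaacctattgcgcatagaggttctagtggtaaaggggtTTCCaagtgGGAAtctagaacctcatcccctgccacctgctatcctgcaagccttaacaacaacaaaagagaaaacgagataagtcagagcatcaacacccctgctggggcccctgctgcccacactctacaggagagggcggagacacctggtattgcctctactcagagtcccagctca
The starts of Cd3d and Cd3g point away from each other at a distance of 1355 bases, and that of Cd3e lies 27825 bases from that of Cd3d. Searched on both strands, with matches of different motifs counted separately where they overlapped, the Cd3d window held 6 ETS cores, the Cd3e window 5 and the Cd3g window 2. Of the 32851 mouse promoter windows of this length, 93.4% held at least 1, with a median of 3. An E box, CANNTG, stood once in the Cd3d and Cd3e windows and 3 times in the Cd3g window, against 66.2% of all windows with at least 1. The RUNX core TGTGGT, present in 14.05% of all windows, and the TATA box TATAAA, present in 12.4%, had no match in these 3 windows. A GATA core, GATAA, was matched in the Cd3g window only, and 22.6% of all windows held it. These matches describe letters and no binding was measured.

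CD3 chain transcripts were found in few of the sorted cells. At least 1 of Cd3d, Cd3e and Cd3g was present in 65 of 360 WT cells, or 18.1% (14.2 to 22.4), and in 83 PD-1-/- cells, or 22.7% (18.5 to 27.3). The PD-1-/- share was 4.62 percentage points higher, with an interval of the difference from -1.43 to 10.6 that included 0. Both genotypes gave the same order of the chains. Cd3d, the delta chain, had the highest share, 14.4% (10.98 to 18.5) in WT and 16.9% (13.2 to 21.2) in PD-1-/-. Cd3g, the gamma chain, followed with 11.7% (8.54 to 15.4) and 15.8% (12.3 to 19.999). Cd3e, the epsilon chain, was rarest, with 7.78% (5.23 to 11.05) and 12.02% (8.87 to 15.8). In neither genotype were the shares of neighbors in this order separated beyond their intervals. For comparison, Cd79a and Cd79b, which encode chains of the B cell receptor and should be lacking in NK cells, were found in 0.556% (Cd79a) and 0.556% (Cd79b) of kept WT cells and in 0.546% and 0.820% of kept PD-1-/- cells.

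Lck, Zap70 and Cd247 were far more common. The share with Lck was 91.1% (87.7 to 93.8) in WT and 89.9% (86.3 to 92.8) in PD-1-/-, above every other transcript of the set. Zap70 followed with 60.8% (55.6 to 65.9) and 67.5% (62.4 to 72.3). Cd247 was present in 56.1% (50.8 to 61.3) and 55.2% (49.9 to 60.4), and its interval overlapped that of Zap70 in WT but not in PD-1-/- cells. Lat was present in 37.2% (32.2 to 42.4) and 39.3% (34.3 to 44.6), and Syk in 25.3% (20.9 to 30.1) and 25.7% (21.3 to 30.5). Lat and Syk were separated from Cd247 and from each other beyond their intervals in both genotypes. Even Syk, the least common of these, lay above Cd3d, with intervals that did not overlap in either genotype. With every cell thinned to 100000 reads, which left out 26 WT and 14 PD-1-/- cells with fewer, the share with at least 1 CD3 chain was 15.9% in WT and 20.2% in PD-1-/-, against 17.4% and 23.01% of these cells before thinning. Cd247 fell from 55.99% to 51.5% in WT and from 55.1% to 47.7% in PD-1-/- cells. Thinning thus lowered its share more than that of Lck, which went from 93.1% to 91.6% and from 90.9% to 88.4%. Between the cells of lower and of higher depth, Cd247 went from 54.4% to 57.8% in WT and from 56.3% to 54.1% in PD-1-/-. Lck went from 88.3% to 93.9% and from 87.98% to 91.8%, so that split did not give the same order. The share with at least 1 CD3 chain went from 20% (14.4 to 26.6) to 16.1% (11.1 to 22.3) in WT. In PD-1-/- it went from 24.6% (18.5 to 31.5) to 20.8% (15.1 to 27.4). CD3 chains were thus not found more often in the cells of higher depth, and these intervals overlapped.

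**Figure D1:**
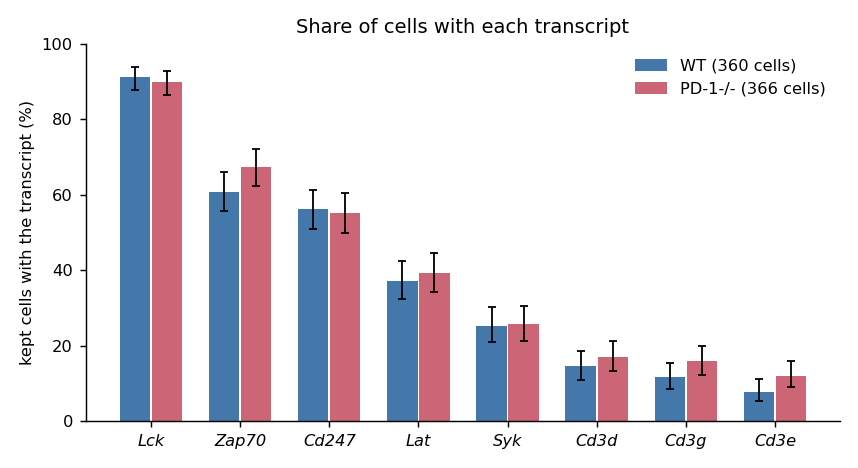
Share of kept cells with each transcript, in percent, for WT (360 cells) and PD-1-/- (the rest of 726 cells); bars start at 0 and lines are exact binomial 95% intervals. Lck stood near 90% in both genotypes and the CD3 chains between 7.78% and 16.9%.

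The order of the levels was another. RPKM is per length, so levels can be set side by side. In the WT cells that had it, Lck ranged from 1.31 to 2601 RPKM with a median of 673, and in PD-1-/- cells from 1.17 to 3199 with a median of 624. Cd247 had a median of 320.5 RPKM (1.38 to 1252) in WT and 267.6 (1.32 to 1692) in PD-1-/- cells, and Zap70 had 250.2 (1.59 to 1082) and 208.05 (0.866 to 2139). The adaptor Lat stood lower, with medians of 115.8 RPKM in WT (2.06 to 689) and 153.4 in PD-1-/- (1.99 to 1072). Syk was lowest, with medians of 58.3 (0.463 to 374.4) and 65.2 (0.371 to 303.9). CD3 chains, although rare, were high where they were found, and their ranges overlapped that of Lck.

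Among the cells with Cd3g, the level had a median of 720 RPKM in WT (2.57 to 3088) and 1016 in PD-1-/- (1.94 to 3906). Cd3e had medians of 557 (23.3 to 1441) and 723 (1.91 to 1694), and Cd3d had 500.1 (2.29 to 1842) and 453 (1.82 to 2453). Averaged over all kept cells, zeros included, Lck gave 686 RPKM in WT and 684 in PD-1-/-, Cd247 191.99 and 183.9, Lat 65.01 and 69.6, and Syk 19.4 and 20.3, while Zap70 gave 180.98 in WT. The CD3 means were 101.8 and 193.9 for Cd3g, 81.7 and 100.9 for Cd3d, and 46.2 and 82.8 for Cd3e. A few high cells thus set the CD3 means, while the Lck mean came from nearly all cells.

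**Figure D2:**
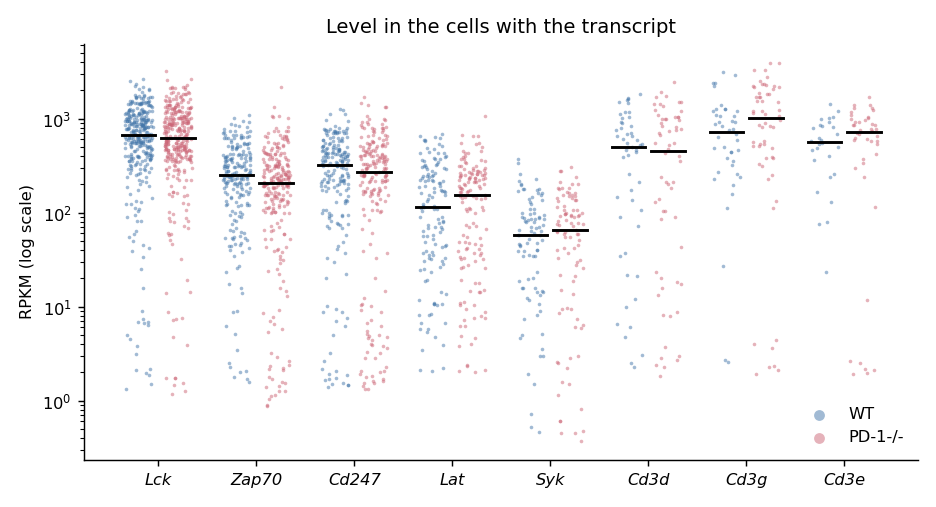
RPKM on a log scale in each kept cell that had the transcript; each point is 1 cell and black bars are medians. The CD3 chains were found in fewer cells than the other transcripts, with medians between 453 and 1016 RPKM. Each gene had cells at a few RPKM or less, except Cd3e in WT, where the lowest value was 23.3 RPKM.

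Part of the cells had few reads of a transcript. Below 5 recovered reads lay 29 WT and 41 PD-1-/- cells with Cd247, against 14 and 12 cells with the more common Lck. For Cd3d these were 9 of 52 and 10 of 62 cells, for Cd3g 7 of 42 and 7 of 58, and for Cd3e 2 of 28 and 6 of 44. Wells P23 and P24 of the plates held at most 387 recovered reads each. Even there, 1 read of Cd3e was found in WT well P23, and 1 read of Cd247 in each of the PD-1-/- wells P23 and P24. Single reads of these transcripts were thus also found in wells nearly without reads. The labels do not say whether a cell was sorted into these wells. For Cd247, 1 read was not worth the same RPKM in every cell beyond depth: 73 of the 404 cells with Cd247 lay on steps over 2.5 times the smallest, and the largest was 2.94 times it. The reads of 88 of 466 cells with Zap70 and 93 of 657 cells with Lck did not lie on a found step and were rounded.

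CD3 chains came mostly as a full set or as a lone chain. Among the cells with a CD3 chain, 62 had all 3, 14 had 2 and 72 had 1. All 3 were present in 26 WT cells, or 7.22% (4.77 to 10.4), and in 36 PD-1-/- cells, or 9.84% (6.98 to 13.4). Cells with 1 chain numbered 34 in WT and 38 in PD-1-/-, and cells with 2 chains 5 and 9. With a minimum of 5 recovered reads per chain, 24 WT and 36 PD-1-/- cells had all 3, while cells with 1 chain fell to 24 and 19. The full set was thus less dependent on single reads than the lone chain.

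The 3 chains differed in how often they stood alone. Of the 72 cells with Cd3e, 62 had the other 2 chains as well. In WT, all 28 cells with Cd3e had Cd3d and 26 had Cd3g, whereas Cd3e was found in 0 cells without Cd3d, with an exact interval up to 1.19%. In PD-1-/- cells, 37 of 44 cells with Cd3e had Cd3d and 37 had Cd3g. Cd3e as the only chain was seen in 0 WT cells and in 6 PD-1-/- cells, and those 6 held between 1 and 6 reads of it. Cells with a lone chain had Cd3d in 39 cases, with a median of 5 reads and up to 390, and Cd3g in 27 cases, with a median of 59 reads and up to 421. In the cells with all 3 chains the medians were 347.5 reads for Cd3d, 289.5 for Cd3e and 336.5 for Cd3g. Lone Cd3d and lone Cd3g therefore included cells above these medians, and lone Cd3e did not.

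Within the 62 cells that had all 3 chains, the levels hardly followed each other. Pearson's r of log2(RPKM + 1) across these cells, which share 2 plates, was 0.07 for Cd3d and Cd3e, 0.04 for Cd3d and Cd3g and 0.26 for Cd3e and Cd3g, as a description with no test. Over all kept cells of a genotype the 3 chains were the transcripts most like each other among the 8266 genes that at least 5% of cells had in both genotypes. The lower of the correlations within WT and within PD-1-/- cells was 0.83 for Cd3d and Cd3e, 0.80 for Cd3e and Cd3g and 0.73 for Cd3d and Cd3g. Next came Ikzf2, which encodes the transcription factor Helios, at 0.40 for Cd3d and 0.43 for Cd3e, and Amica1, which encodes an adhesion molecule, at 0.40 for Cd3g. The other members had no transcript as close. The 3 most alike reached 0.26 to 0.24 for Lck (Ptprcap, Arpc1b and Coro1a), 0.19 to 0.17 for Lat (Cd3e, Cd160 and Cd3g), and 0.17 to 0.16 for Zap70 (Coro1a, Myl6 and Rnf4). They reached 0.17 to 0.14 for Syk (Mical1, Sh2d2a and Poldip3) and 0.13 to 0.12 for Cd247 (Rhno1, Ucp2 and Iah1). Correlations this weak in sparse reads were not read further.

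**Figure D3:**
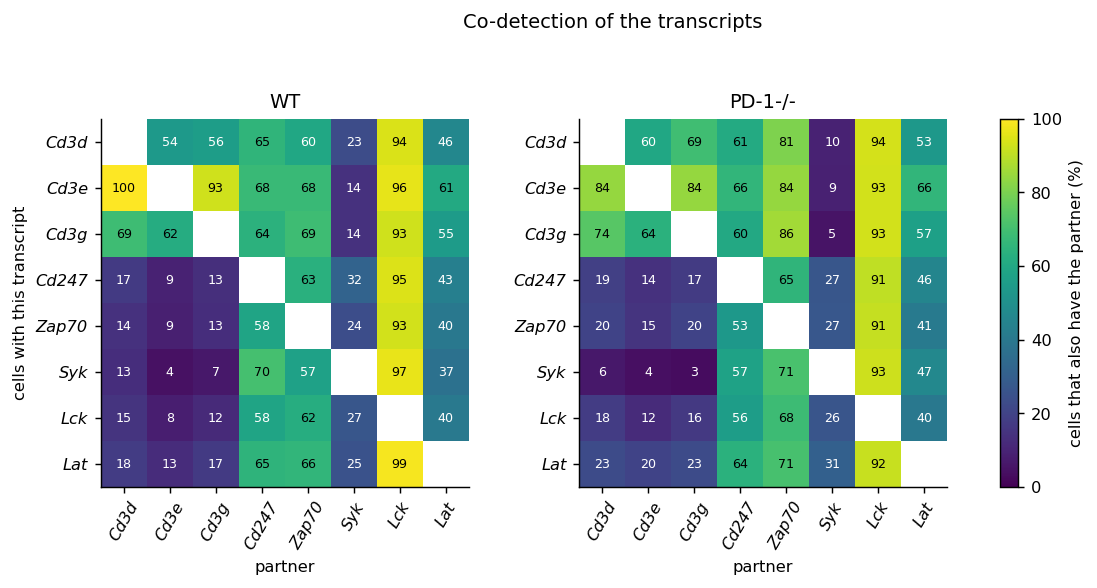
Co-detection in WT (left) and PD-1-/- cells (right): of the cells with the transcript named on the row, the percent that also had the partner named on the column. The block of CD3 chains at the upper left was high, at 53.8% to 100% in WT and 59.7% to 84.1% in PD-1-/- cells, while the Lck column was high in every row.

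Zeta chain and kinases were present with or without CD3 chains. At least 1 of Cd247, Zap70, Syk, Lck and Lat was found in all but 10 WT and 5 PD-1-/- cells. Cells without a CD3 chain had a mean of 2.67 of these 5 transcripts in WT and 2.74 in PD-1-/-, and cells with a CD3 chain 2.86 and 2.90. By the ratio of the shares in cells with and without a CD3 chain, 0 of the 5 were at least 1.5-fold more common in cells with a CD3 chain in both genotypes, where 2.11% of 8263 genes were. Likewise 0 of the 5 were at least 1.5-fold less common, where 1.56% of genes were. The median ratio of the 5 was 1.04 in WT and 1.06 in PD-1-/-, beside 1.03 and 1.02 over all genes tested.

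For Lck and Cd247, the intervals of the difference between these cells included 0 in both genotypes. Lck was present in 93.8% of WT cells with a CD3 chain and 90.5% of those without, and in 91.6% and 89.4% of PD-1-/- cells. The interval of the difference ran from -6.05 to 9.28 points in WT and from -6.66 to 8.67 in PD-1-/-. Cd247 was present in 64.6% against 54.2% in WT (difference -3.71 to 23.3 points) and 57.8% against 54.4% in PD-1-/- (-9.37 to 15.7 points). Counted at any RPKM above 0, zeta chain transcripts were thus found in most cells that had no CD3 chain at all. With at least 5 reads, the Cd247 share over all kept cells was 48.1% in WT and 43.99% in PD-1-/-. That majority therefore depended on the limit. For Lat, Syk and Zap70 the interval included 0 in WT but not in PD-1-/- cells. In PD-1-/-, cells with a CD3 chain had Lat in 49.4% against 36.4% (0.377 to 25.5 points), Syk in 10.8% against 30.04% (-27.3 to -8.97 points) and Zap70 in 80.7% against 63.6% (5.54 to 26.9 points).

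Lat was more common, and Syk less common, in cells with the full set of chains. The contrast of cells with all 3 chains and cells with none was chosen after the values had been seen. Lat was present in 17 of 26 WT cells with 3 chains, or 65.4%, against 35.3% of cells with none, a difference of 30.1 points (8.31 to 48.4). In PD-1-/- cells it was 69.4% against 36.4%, a difference of 33.05 points (14.5 to 48.3). Syk was present in 15.4% of WT cells with 3 chains and 26.1% of cells with none, with an interval of the difference from -22.999 to 9.38 points that included 0. In PD-1-/- cells it was 5.56% against 30.04%, and the interval from -31.99 to -10.3 points did not include 0. Lat was the only 1 of the 5 at least 1.5-fold more common with 3 chains in both genotypes, against 3.93% of 8263 genes, and Syk the only 1 at least 1.5-fold less common, against 5.13%. Without plate rows A and B, where WT cells with a CD3 chain were frequent, the ratios were 1.68 in WT and 1.79 in PD-1-/- for Lat and 0.253 and 0.209 for Syk. The WT values then rested on 15 cells with 3 chains, 9 with Lat and 1 with Syk, and both intervals of the difference included 0 (-4.09 to 48.6 points for Lat and -28.3 to 6.10 for Syk). In PD-1-/- cells they rested on 32, and neither included 0 (10.48 to 46.6 and -31.9 to -8.10). Cells with a lone chain gave 38.2% and 31.6% for Lat and 29.4% and 18.4% for Syk, and all 4 intervals of their difference to cells with none included 0.

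Zap70 was present in 88.9% of PD-1-/- cells with 3 chains against 63.6% of those with none, a difference of 25.3 points (9.32 to 35.2), and in 69.2% against 61.02% of WT cells (-13.5 to 25.7 points). Both differences were positive and their intervals overlapped, and the difference between the genotypes was not tested. Of the PD-1-/- cells with 3 chains, 30 of 36, or 83.3% (67.2 to 93.6), had Zap70 without Syk, against 42.8% (36.9 to 48.7) of those with none. In WT cells the values were 57.7% (36.9 to 76.6) and 45.1% (39.3 to 50.96). Syk without Zap70 was seen, among cells with 3 chains, in 1 of 26 (WT) and 0 of 36 (PD-1-/-), and in 10.2% and 9.19% of those with none. Over all kept cells, 14.4% had both kinases in WT and 18.3% in PD-1-/-, and 28.3% and 25.1% had neither.

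**Figure D4:**
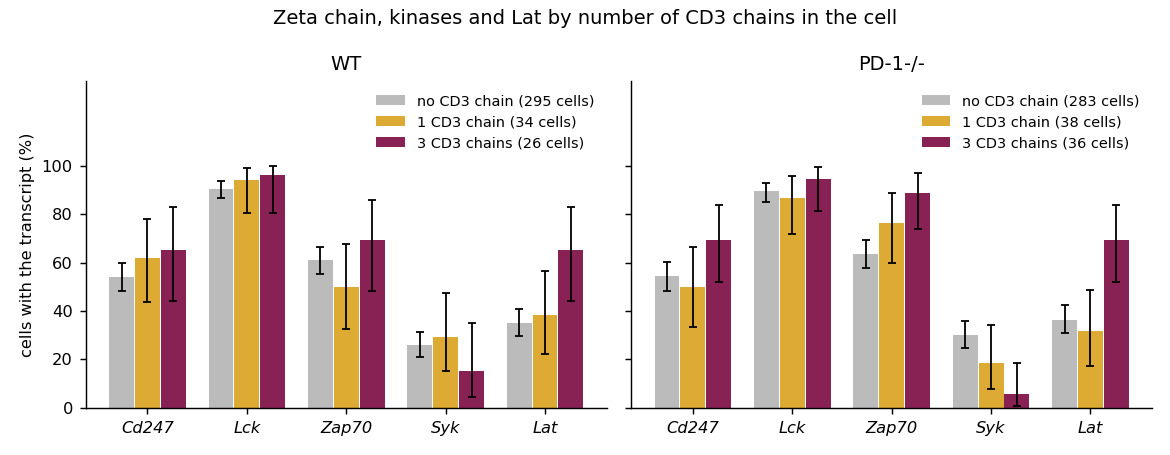
Share of cells with the zeta chain, the kinases and Lat among cells with 0, 1 or 3 CD3 chains, in percent with exact binomial 95% intervals, for WT (left) and PD-1-/- (right). Lat stood at 65.4% and 69.4% in cells with 3 chains against 35.3% and 36.4% in cells with none, and Syk at 15.4% and 5.56% against 26.1% and 30.04%.

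Transcripts of other cell types also went with the full set of chains. Depth was similar, with a median of 285890 reads in WT and 303522 in PD-1-/- cells with 3 chains and 312170 and 329762 in cells with none. At least 1 of 10 T-like markers (Cd4, Cd5, Cd6, Cd8a, Cd8b1, Bcl11b, Themis, Cd28, Trat1 and Zbtb16) was present in 80.8% of them in WT and 61.1% in PD-1-/-, against 25.4% and 26.5% of cells with none. Cd28 alone was present in 21.9% and 21.3% of all kept cells, and each other T-like marker in at most 6.01%. The summed level of the list ranged from 0 to 1406 RPKM in WT cells with 3 chains and from 0 to 1623 in PD-1-/-, and from 0 to 441 and 0 to 711 in cells with none. Cd8a, a coreceptor of cytotoxic T cells, was present, among cells with 3 chains, in 6 of 26 (WT) and 5 of 36 (PD-1-/-), and in 1 WT and 1 PD-1-/- cell with none. Bcl11b, a transcription factor of the T cell lineage, was present in 34.6% and 30.6% against 2.03% and 3.53%. Themis was at 0 in all kept WT cells, and Zbtb16 in WT cells with 3 chains. Every kept cell had at least 1 of 8 NK-like markers (Ncr1, Klrb1c, Klrk1, Klre1, Eomes, Tyrobp, Fcer1g and Gzma), but with 3 chains the median cell had 6 of them and without a chain 8. The summed NK-like level had medians of 5672 and 6858 RPKM with 3 chains and 18697 and 18488 with none, and ranged from 1439 to 35602 and from 1391 to 37385 with 3 chains and from 2331 to 73890 and from 1464 to 79634 with none. Of these 8 markers, 2 were at least 1.5-fold less common with 3 chains in both genotypes, where 5.13% of 8263 genes were. They were Eomes and Ncr1, which encodes NKp46.

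ILC1-like markers were also more common with the full set. At least 1 of Cxcr6, Itga1, Tnfsf10 and Il7r was present with 3 chains in 84.6% (WT) and 94.4% (PD-1-/-), against 22.7% and 38.2% of cells with none. All 4 were at least 1.5-fold more common with 3 chains in both genotypes, where 3.93% of 8263 genes were. The marker lists were chosen with earlier results of these data known, and the paper names these 4 genes as higher in some of its clusters of these cells. The count of 4 is therefore a description and no independent support. Myeloid-like markers (Lyz2, Csf1r, C1qa, Cd68 and Emr1) were present with 3 chains in 19.2% (WT) and 8.33% (PD-1-/-) and in 12.5% and 6.71% of cells with none, and fibrosarcoma-like markers (Col1a1, Col1a2, Col3a1 and Sparc) in 3.85% and 0% against 5.08% and 3.18%. Trac, Trbc1, Trbc2 and Trdc, the constant regions of the T cell receptor, matched no deposited symbol and were not analysed here. The part of T cells, of other innate lymphoid cells or of the sort in these shares was not tested.

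Of the other pathway transcripts tested, few passed 1.5-fold with the CD3 chains. Comparing cells with and without any CD3 chain, 0 of 3 ITAM adaptors, 0 of 6 Src and Tec family kinases, 0 of 23 adaptors and effectors and 0 of 16 brakes were past 1.5-fold in both genotypes in either direction, beside the 2.11% higher and 1.56% lower over all genes. Counts of 0 in lists of this size are near that background and do not show equal shares. Genes found in fewer than 5% of the cells of a genotype were left out of this comparison. Among them, Trat1, a receptor partner (1.11% of WT and 1.91% of PD-1-/- cells), had ratios of 13.6 and 2.56. The effector Plcg1 (1.94% and 4.92%) had a ratio of 5.36 in PD-1-/-, and in WT was found in no cell without a CD3 chain. The other genes left out were not past 1.5-fold higher in either genotype where a ratio could be formed. Fcer1g, the gamma chain adaptor, was present in all WT cells and 99.7% of PD-1-/- cells. Tyrobp, which encodes DAP12, was present in 98.1% and 94.3%. It was found in 89.2% (79.1 to 95.6) of WT cells with a CD3 chain against 100% without. The PD-1-/- values were 80.7% (70.6 to 88.6) with and 98.2% (95.9 to 99.4) without. Its share in cells with 3 chains was 0.808 times that of cells with none in WT and 0.622 times in PD-1-/-. Fyn, a further Src family kinase, was present in 72.8% and 69.9%, and Txk, of the Tec family, in 82.8% and 83.1%. With 3 chains against none, 2 of the 16 brakes were past 1.5-fold higher in both genotypes, beside 3.93% of all genes: Ubash3a, which encodes a suppressor of T cell receptor signaling, with ratios of 1.80 and 1.89, and Cish, which encodes a cytokine-induced SH2 protein, with 1.62 and 1.69. Of the tested ITAM adaptors, kinases and adaptors and effectors, 0 were.

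Between the genotypes, mean RPKM differed most for Cd3g and Cd3e. Of the 8 members, 2, Cd3g and Cd3e, were at least 1.5-fold higher in PD-1-/-, where 10.96% of 12030 genes past 1 RPKM in the mean were, and 0 were at least 1.5-fold lower, where 13.99% were. The log2 ratio of mean RPKM with a pseudocount of 1, PD-1-/- over WT, was 0.92 for Cd3g, 0.83 for Cd3e and 0.30 for Cd3d. It was 0.10 for Lat, 0.06 for Syk, -0.01 for Lck, -0.05 for Zap70 and -0.06 for Cd247. The median over the 8 was 0.08 and over all genes tested -0.03. The difference of the shares, PD-1-/- minus WT, was 4.24 points for Cd3e (-0.294 to 8.80) and at most 6.65 points for any member, that of Zap70 (-0.515 to 13.8), and every interval included 0. Of the other pathway genes, 1 of 7 kinases (Yes1, log2 ratio 0.9998), 1 of 25 adaptors and effectors (Plcg1, 1.32), 1 of 16 brakes (Cish, 0.63) and the receptor partner Trat1 (1.198) were past 1.5-fold higher in PD-1-/-, 1 brake (Ubash3b, -0.65) was past it lower, and 0 of 3 ITAM adaptors were past it. Markers went with genotype as well: 3 of 4 ILC1-like markers (Cxcr6, 1.81, Itga1, 1.21, and Tnfsf10, 0.85) and 2 of 8 T-like markers (Cd8b1, 0.83, and Trat1) were past 1.5-fold higher in PD-1-/-, and 1 T-like marker (Cd6, -0.59) lower. Of 3 myeloid-like markers tested, 2 were past 1.5-fold lower (Lyz2, -1.71, and Cd68, -1.06), as was the fibrosarcoma-like Sparc (-1.19). Cd79b, the only B-like marker tested, was past it higher (0.97). Several of these ratios rest on few cells. Cells with Cd79b made up 0.556% (WT) and 0.820% (PD-1-/-). In the same order, the shares were 1.39% and 2.46% for Cd8b1, 1.67% and 3.28% for Yes1, and 2.78% and 1.64% for Sparc. The part of these markers in the CD3 values was not tested. Fewer cells with a transcript and less of it per cell both lower a mean. For the CD3 chains the share of cells differed in the same direction as the mean. The median level in cells with the transcript did so for Cd3g (720 RPKM in WT and 1016 in PD-1-/-) and Cd3e (557 and 723), but not for Cd3d (500.1 and 453). The parts of share and level in the means were not tested. Cd3e, Cd247 and Lat are among the genes that the study picked from these libraries, so their values are not independent of that choice.

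The CD3 values depended on the plate rows. On the WT plate, at least 1 CD3 chain was present in 52.6% (35.8 to 69.02) of the 38 cells in the top rows, A and B, against 14.3% in rows C to H and 13.7% in the lower rows, I to P. The PD-1-/- plate gave 20%, 16.5% and 28.02%. In rows A to H together the PD-1-/- share minus the WT share was -5.08 points (-13.7 to 3.53), and the log2 ratio was -0.49 for Cd3d, -0.16 for Cd3e and 0.13 for Cd3g. In the lower rows the difference was 14.3 points (5.61 to 22.8), and the log2 ratio was 1.53 for Cd3d, 2.51 for Cd3e and 1.88 for Cd3g. Without rows A and B all 3 chains were at least 1.5-fold higher in PD-1-/-, with log2 ratios of 1.73 for Cd3e, 1.599 for Cd3g and 1.13 for Cd3d. These rows are those where WT was high, so row L, where the PD-1-/- plate was high with 12 of 23 cells, was left out as well, also after seeing the data. Without rows A, B and L the log2 ratios were 1.77 for Cd3e, 1.48 for Cd3g and 1.12 for Cd3d, and the difference of the share was 6.81 points (0.501 to 13.1). Without row L alone they were 0.77, 0.79 and 0.23, and the difference was 2.36 points (-3.81 to 8.50). The part of the plate rows in the genotype values was not tested. Over the 3 blocks of both plates, Lck lay between 86.3% and 93.4%, Cd247 between 53.3% and 60.5%, Zap70 between 58.6% and 73.3% and Syk between 22.1% and 28.02%. Lat lay between 35% and 42.1% on the WT plate and between 28.9% and 42.9% on the PD-1-/- plate, a wider range there than that of the CD3 share.

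**Figure D5:**
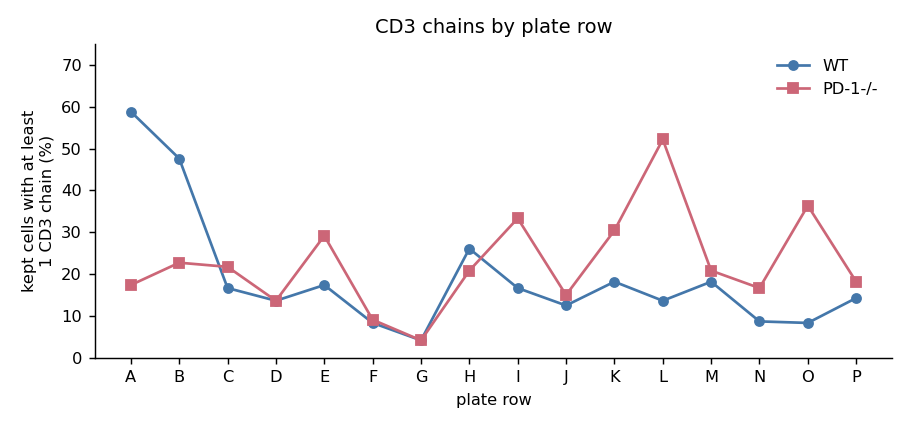
Percent of kept cells with at least 1 CD3 chain in each row of the WT and the PD-1-/- plate, 17 to 24 cells per row. Rows A and B of the WT plate stood at 58.8% and 47.6% and row L of the PD-1-/- plate at 52.2%.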

How the data were processed

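Single NK cells sorted into 384 wells per plate, 1 plate per genotype, had been sequenced by SMART-SEQ2. The authors deposited RPKM (reads scaled to transcript length and library size) values per gene and well. The submitters' processing notes name TopHat, Cufflinks, mm9 and mm10, with no role or version, and the annotation is not given in the sources used here. A well's genotype came from its title and treatment labels.

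Wells with 1000 to 3500 genes above 0 were kept (360 WT, 366 PD-1-/-), among 14761 genes found in at least 3 wells. Wells below (8 WT, 4 PD-1-/-) and above (16 WT, 14 PD-1-/-) were left out. The median RPKM total per kept cell was 554646 in WT and 546585 in PD-1-/-. Reads were recovered as whole multiples of the smallest RPKM step of a gene. Of 1767825 values of the genes found in at least 8 wells, 96.6% were whole within a relative tolerance of 1e-06. Reads were recovered for 11521 genes. Steps were compared with GENCODE transcript lengths in 1500 genes, of which 452 had a matching length, 442 of them at 1 read. The value for 1 read was set at the commonest product of step and length in these same genes. That count therefore cannot show that a step is 1 read. Implied lengths were 1330, 1436 and 1023 bases for Cd3d, Cd3e and Cd3g, against 1617, 1462 and 1023 for the nearest transcripts. The recovery was also tested on simulated data. The number of cells sets the width of each interval, depth affects whether a transcript is found, and reads under 5 are given separately.

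Shares carry exact binomial 95% intervals. Genes were called at 1.5-fold: in mean RPKM plus a pseudocount of 1 between genotypes (genes averaging 1 RPKM or more), or in share of cells (genes in at least 5% of cells) between cells with and without CD3 chains in both genotypes. With 1 pool per genotype no test was made. The members, pathway lists and marker lists were chosen with earlier results of these data known. Genes named beside the members are the 3 most alike per member, and those of the lists past 1.5-fold or given as examples. The alternatives were the limits on genes per well, an RPKM or read minimum, thinning, plate rows, pseudocounts of 0.1 and 10, scaling, and no filter. Added after seeing the data were read-based levels, the contrast of 3 chains with none, and leaving out row L. Motifs were searched in RefSeq promoters (GRCm38.p6), where 8 of 8 members matched. Computations used Python 3.11.15, numpy 2.4.6, pandas 2.3.3, scipy 1.17.1 and matplotlib 3.10.9. A withheld item is not reported here.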

Additional observations from a re-analysis of the deposited data

Results flagged for a closer look

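For Zap70 the difference had unlike signs in the genotypes: its share was -1.02 points (-15.1 to 12.3) in WT cells with at least 1 CD3 chain relative to cells without, and 17.1 points (5.54 to 26.9) in PD-1-/- cells. The WT interval includes both directions, and with 3 chains the WT difference was 8.21 points (-13.5 to 25.7). The difference between the genotypes was not tested, since each genotype was 1 pool on 1 plate.

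CD3 chains were also found in wells that the limit of 3500 genes left out. At least 1 chain was present in 4 of 16 such WT wells, or 25% (7.27 to 52.4), and in 6 of 14 PD-1-/- wells, or 42.9% (17.7 to 71.1). Both intervals include the shares in kept cells, 18.1% in WT and 22.7% in PD-1-/-. All 3 chains were present in 5 of 14 PD-1-/- wells, or 35.7% (12.8 to 64.9), and in 1 of 16 WT wells. In kept cells these shares were 9.84% in PD-1-/- and 7.22% in WT. Lck was present in every one of these 30 wells. Whether such wells held more than 1 cell was not tested.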

How the results depend on the processing

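The CD3 values changed with the plate rows and with the number of chains required. The share of cells with a CD3 chain was 13.98% in WT without rows A and B (14% without row L too, which was added after seeing the data), 22.5% in WT and 17.4% in PD-1-/- in rows A to H (difference -5.08 points), and 13.7% and 28.02% in rows I to P (difference 14.3 points). With at least 2 chains required it was 8.61% and 12.3%, and in PD-1-/- cells it was 16.9% both with at least 10 RPKM and with at least 5 reads. The difference was 9.08 points (2.87 to 15.2) without rows A and B, 7.72 (1.18 to 14.2) with 1500 to 3000 genes per well and 1.38 (-4.19 to 6.94) with at least 10 RPKM. In rows A to H, 0 members were 1.5-fold higher in PD-1-/-, and the log2 ratio of Cd3e reversed to -0.16. Between cells with and without a CD3 chain, 1 of the 5 other members, Lat, became 1.5-fold more common in both genotypes with at least 10 RPKM and with at least 5 reads, and 1, Syk, became 1.5-fold less common with thinned reads. With 3 chains against none, chosen after seeing the data, 1 was more and 1 less common, also without rows A and B (1 and 1) and with at least 5 reads (1 and 1). Of the log2 ratios of single members under alternatives, 82 moved by less than 1.5-fold, 10 by more and 1 reversed, and those that moved more or reversed were CD3 chains under row choices. Besides Cd3e, Cd3d changed sign in rows A to H, from 0.30 to -0.49, without having been past 1.5-fold. Without a filter on low values, 9.01% of 18475 genes were called higher and 12.4% lower. No paired analysis was possible because the cells of the genotypes share only a well number, and no result comes from a test. Transcripts at 1 to 4 reads stood near the lowest number that could be found. CD3 chains were, however, not found more often in the cells of higher depth. Cells with no CD3 chain give no value for the CD3 genes. The causes were not tested.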
